A study of Mus musculus with 8 samples.

Results

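The 10 transcripts of the NF-kB system, namely Tnfaip3, Nfkbia, Nfkbie, Nfkbiz, Nfkb1, Nfkb2, Rela, Relb, Bcl3 and Icam1, were followed through a 60 min induction of mouse palate cells with ephrin-B1. Members were all probes that carried 1 of these 10 gene symbols in the annotation of the Illumina array. They came to 10 of 46632 probes and to 9 of the 17711 genes named on the array, with 2 probes for Nfkbie. No probe carried the symbol Nfkb1, which is therefore not analysed here. The cells were primary mouse embryonic palate (MEP) cells, isolated from the palatal shelves of CBA;C57BL6 N2 embryos at E13.5 and grown in serum-containing medium to passage 1. On the induced side 4 arrays held cells induced with pre-clustered ephrin-B1-Fc, a soluble form of a membrane-bound ligand of Eph receptors, at 2 ug/ml for 60 min. The other 4 arrays held uninduced cells, described as a control induction with no statement on whether the clustering reagent alone was added. Each group had its replicate 1 on slide 1 and its replicate 2 on slide 2, while slide 3 carried replicates 3 and 4 of each.

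NF-kB is a family of dimeric transcription factors that wait in the cytoplasm, bound by inhibitors of the IkB family. Signals from cytokine and Toll-like receptors activate an IkB kinase complex, the inhibitor is degraded, and the dimer enters the nucleus. Among its first targets are genes of its own inhibitors, such as Nfkbia, which encodes IkB-alpha, and Tnfaip3, which encodes the ubiquitin-editing enzyme A20. Their transcripts therefore serve as an early readout of NF-kB activity in many cell types.

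The promoters of Tnfaip3, Nfkbia and Nfkb2 are shown because these genes are textbook NF-kB targets, and of them Tnfaip3 passed a test after induction while Nfkbia and Nfkb2 did not. Each line runs 5′ to 3′ on the strand of the gene, from 250 bases before the start site to 50 bases from it onward, and comes from RefSeq on GRCm38.p6. Capitals mark matches to the NF-kB consensus on either strand.
Tnfaip3, chr10:19015361-19015660, minus strand: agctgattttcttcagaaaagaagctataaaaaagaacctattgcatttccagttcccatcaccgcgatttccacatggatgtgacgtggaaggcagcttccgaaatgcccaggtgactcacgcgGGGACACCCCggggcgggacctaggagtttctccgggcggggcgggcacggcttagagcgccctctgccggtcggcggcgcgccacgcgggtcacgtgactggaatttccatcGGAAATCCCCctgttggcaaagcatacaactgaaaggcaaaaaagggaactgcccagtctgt
Nfkbia, chr12:55492598-55492897, minus strand: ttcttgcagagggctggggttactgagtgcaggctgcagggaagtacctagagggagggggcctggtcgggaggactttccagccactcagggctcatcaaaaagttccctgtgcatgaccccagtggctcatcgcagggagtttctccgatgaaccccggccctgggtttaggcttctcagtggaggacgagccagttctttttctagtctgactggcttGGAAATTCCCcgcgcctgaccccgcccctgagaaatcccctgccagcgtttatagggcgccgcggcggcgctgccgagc
Nfkb2, chr19:46304487-46304786, plus strand: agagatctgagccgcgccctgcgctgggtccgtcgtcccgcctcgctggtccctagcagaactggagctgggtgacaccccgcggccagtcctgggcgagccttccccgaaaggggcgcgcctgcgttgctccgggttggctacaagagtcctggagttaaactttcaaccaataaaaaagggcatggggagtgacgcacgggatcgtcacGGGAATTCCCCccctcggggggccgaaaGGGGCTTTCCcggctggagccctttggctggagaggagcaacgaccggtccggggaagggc
The Tnfaip3 window held 2 matches, GGGACACCCC and, read on the opposite strand, GGGGATTTCC, which lay at -12 to -3 from the start site. A window at another Tnfaip3 start site held none. The Nfkbia window held GGGAATTTCC on the opposite strand at -29 to -20. In the Nfkb2 window GGGAATTCCC overlapped a further match shifted by 1 base, and GGGGCTTTCC lay at -11 to -2. Windows at 2 further Nfkb2 start sites overlap each other and shared the same GGGACTTTCC site. Of these windows 1 also held GGGACATTCC. Of the 9 genes, 7 had a window in the RefSeq table, and 5 of these, Tnfaip3, Nfkbia, Nfkbie, Nfkb2 and Bcl3, held a match in at least 1 window. Over all genes in the table the share was 9.55%, and over all 32851 windows it was 8.46%. The windows of Rela and Icam1 held no match, which says only that these letters were absent there. A match is a description of the letters, and binding was not measured.

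Of the 9 genes, Tnfaip3 was lower on the induced array of each of the 4 replicate numbers. The mean decrease was 1.44-fold, and it passed the test only when the pairing was part of the fit. The NF-kB subunits Rela, Relb and Nfkb2, the IkB family genes Nfkbia, Nfkbie, Nfkbiz and Bcl3, and the target Icam1 did not pass in any fit. All 9 genes were detected in both groups. In bulk RNA, fewer cells of a type and less RNA per cell cannot be told apart.

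Signals were background corrected and quantile normalized on the log2 scale, so all levels below are normalized log2 intensities, comparable between arrays for 1 probe and not between probes. A probe counted as above background where its detection p-value was under 0.05. Limma tested 9396 genes, each by its brightest probe, and a gene was called at a Benjamini-Hochberg adjusted p under 0.05. Without a block limma called 0 of the 9 NF-kB genes, where 0.0319% of all genes tested were called, 0.0106% higher and 0.0213% lower. Of the 9, 1 gene, Tnfaip3, had an unadjusted p under 0.05, as did 1.26% of all genes. With the replicate number as a block 1 of the 9 genes was called, lower, where 0.49% of all genes were called lower, 0.0426% higher and 0.532% in either direction. With the slide as a block the count was 0 of 9, where 0.128% of all genes were called, 0.106% lower and 0.0213% higher. Whether replicates came from separate cultures is not stated, so these p-values measure the spread between arrays. With the replicate block this is the spread of the pair differences, and with the slide block the spread within slides.

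Tnfaip3 (Entrez 21929) had levels of 7.33, 7.53, 8.01 and 7.85 on uninduced arrays 1 to 4. On the induced arrays of the same numbers they were 6.92, 7.02, 7.41 and 7.28. Every induced array was lower than its partner, while the groups as a whole overlapped, since induced replicate 3 was higher than uninduced replicate 1. The pair differences were -0.40, -0.51, -0.60 and -0.58, against a median over all genes tested of -0.013, 0.0040, 0.010 and -0.0092 in the same pairs. Of all genes tested, 8.35% were lower in 4 of 4 pairs. The raw signals ran from 162.3 to 335.1, and the probe was above background on all 8 arrays.

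Uninduced cells had a mean Tnfaip3 level of 7.68 ± 0.31 (SD, n = 4), and induced cells one of 7.15 ± 0.23 (SD, n = 4). This is a log2 difference of -0.52, with an SE of 0.17 without a block and 0.083 with the replicate block. Limma gave an adjusted p of 0.9996 without a block, 0.00742 with the replicate block and 0.0798 with the slide block, and the gene was lower in 4 of 4 pairs. By unadjusted p it stood at rank 36 of 9396 without a block, 24 with the replicate block and 17 with the slide block. Within slides 1, 2 and 3 the difference was -0.40, -0.51 and -0.59. With the replicate block the call held without replicate 1 (adjusted p = 0.0228), and was lost without replicate 2 (0.0541), replicate 3 (0.0637) or replicate 4 (0.0704), each with 3 of 3 pairs lower. It was also lost with the replicate block and no variance trend (adjusted p = 0.0611).

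**Figure D1:**
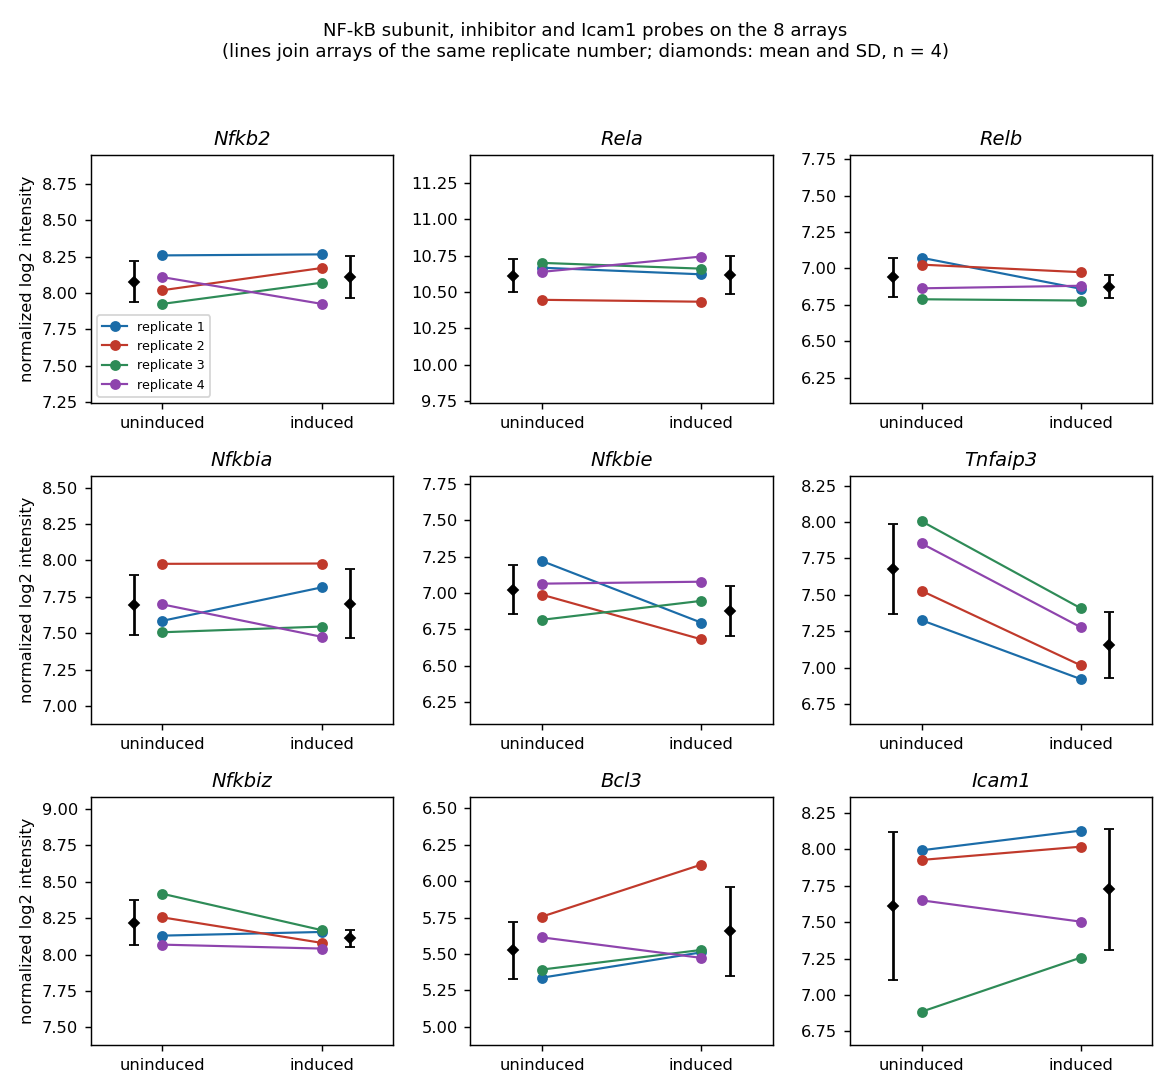
Normalized log2 intensity (vertical axis, the same span in every panel) of the 9 genes in uninduced and induced cells, with a line for each of the 4 replicate numbers and diamonds for the mean with SD (n = 4). All 4 lines fall for Tnfaip3, from a mean of 7.68 to 7.15, while the lines of each other gene run in both directions.

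Part of the spread of Tnfaip3 lay between pairs and was shared by both groups. The mean of the 2 arrays of a pair was 7.12 and 7.27 for replicates 1 and 2 and 7.71 and 7.56 for replicates 3 and 4, so both pairs on slide 3 were higher. The SD of these pair means was 0.27, larger than in 83.7% of all genes tested, where the median was 0.16. The SD of the 4 pair differences was 0.087. The step between uninduced and induced cells thus varied less from pair to pair than the level did.

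Nfkbia (Entrez 18035), the gene of IkB-alpha, had levels of 7.58, 7.98, 7.51 and 7.70 in uninduced cells. Induced cells had 7.81, 7.98, 7.55 and 7.47. The gene was higher in 3 pairs and lower in pair 4, and the groups overlapped. The pair differences of 0.23, 0.0022, 0.039 and -0.22 averaged 0.012, and with the replicate block the SE was 0.087 and the 95% interval ran from -0.17 to 0.20 (limma adjusted p = 0.99).

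Nfkbie (Entrez 18037) encodes IkB-epsilon, another cytoplasmic inhibitor. Its brighter probe gave 7.22, 6.99, 6.82 and 7.06 in uninduced and 6.80, 6.68, 6.95 and 7.08 in induced cells. It was lower in the pairs on slides 1 and 2, by 0.42 and 0.31, and higher in both pairs on slide 3, by 0.13 and 0.013, and this difference between slides was not tested. The mean difference was -0.15, with an SE of 0.11 and a 95% interval from -0.38 to 0.083 under the replicate block (limma adjusted p = 0.774). The other Nfkbie probe was not above background on any array, with signals of 56.5 to 83.0, and was left out of the tests.

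Nfkbiz (Entrez 80859) and Bcl3 (Entrez 12051) encode nuclear members of the IkB family, which bind NF-kB dimers on DNA. Nfkbiz had 8.13, 8.26, 8.42 and 8.07 in uninduced and 8.16, 8.08, 8.17 and 8.04 in induced cells. The 4 induced arrays lay closer together than the uninduced ones, with an SD of 0.061 against 0.15, and 3 of 4 pairs were lower. The mean difference was -0.11, and with the replicate block the SE was 0.075 and the 95% interval -0.27 to 0.054 (limma adjusted p = 0.762). Bcl3 had 5.34, 5.76, 5.39 and 5.61 in uninduced and 5.51, 6.11, 5.53 and 5.47 in induced cells. Its probe was near background, with raw signals of 92.7 to 113.4 and detection p-values of 0.00873 to 0.0437. Bcl3 was higher in 3 pairs and lower in pair 4, and in each group replicate 2 was the highest array. The mean difference was 0.13, with an SE of 0.12 and a 95% interval from -0.12 to 0.38 under the replicate block (limma adjusted p = 0.819).

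Rela (Entrez 19697) encodes p65, the subunit that carries most of the activating function of the common dimer. Its levels were 10.67, 10.45, 10.70 and 10.64 in uninduced and 10.62, 10.43, 10.66 and 10.74 in induced cells. In both groups replicate 2 was lowest, and the groups overlapped over nearly their whole range. The mean difference was 0.0017, and with the replicate block the SE was 0.051 and the 95% interval -0.11 to 0.11, the narrowest of the 9 genes (limma adjusted p = 0.998).

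Relb (Entrez 19698) and Nfkb2 (Entrez 18034) encode the partners of the alternative NF-kB dimer, Nfkb2 as a precursor that is processed to p52. Relb had 7.07, 7.03, 6.79 and 6.86 in uninduced and 6.86, 6.97, 6.78 and 6.88 in induced cells. The largest pair difference was -0.21 in pair 1, and the other pairs lay between -0.052 and 0.018. The mean difference was -0.064, with an SE of 0.093 and a 95% interval from -0.26 to 0.14 under the replicate block (limma adjusted p = 0.902). Nfkb2 had 8.26, 8.02, 7.92 and 8.11 in uninduced and 8.26, 8.17, 8.07 and 7.92 in induced cells. It was higher in 3 pairs and lower in pair 4. The mean difference was 0.030, with an SE of 0.079 and a 95% interval from -0.14 to 0.20 under the replicate block (limma adjusted p = 0.95).

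Icam1 (Entrez 15894) encodes an adhesion molecule for leukocytes and is a widely used NF-kB target. It had 7.99, 7.93, 6.89 and 7.65 in uninduced and 8.13, 8.02, 7.26 and 7.50 in induced cells. Replicate 3 was lowest in both groups, and the SD of the pair means, 0.45, was larger than in 97.3% of all genes tested. Its pair differences of 0.14, 0.091, 0.37 and -0.15 averaged 0.11. The SE was 0.26 without a block and 0.091 with the replicate block, where the 95% interval was -0.082 to 0.31 (limma adjusted p = 0.80). Icam1 was lower on slide 3, with a mean of 7.32, than on slide 1 (8.06) or slide 2 (7.97), whereas Tnfaip3 was higher there.

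For each of the 8 genes other than Tnfaip3 the 95% interval held 0, both without a block and with the replicate block. The interval of Tnfaip3 overlapped each of the 8 without a block and, with the replicate block, that of Nfkbie alone, and differences between genes were not tested. These intervals are not adjusted for the number of genes. Of the 9 genes, 4 had a lower and 5 a higher mean in induced cells, where 50.8% of all genes tested had a lower mean. Their median log2 difference was 0.0017, against -0.0015 over all genes, and 0 of 9 had groups that did not overlap, against 1.19% of all genes (0.713% lower and 0.479% higher). Within pairs 1 to 4 the median over the 9 genes was 0.0069, -0.013, 0.039 and -0.14. Over all genes tested it was -0.013, 0.0040, 0.010 and -0.0092 in the same pairs.

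**Figure D2:**
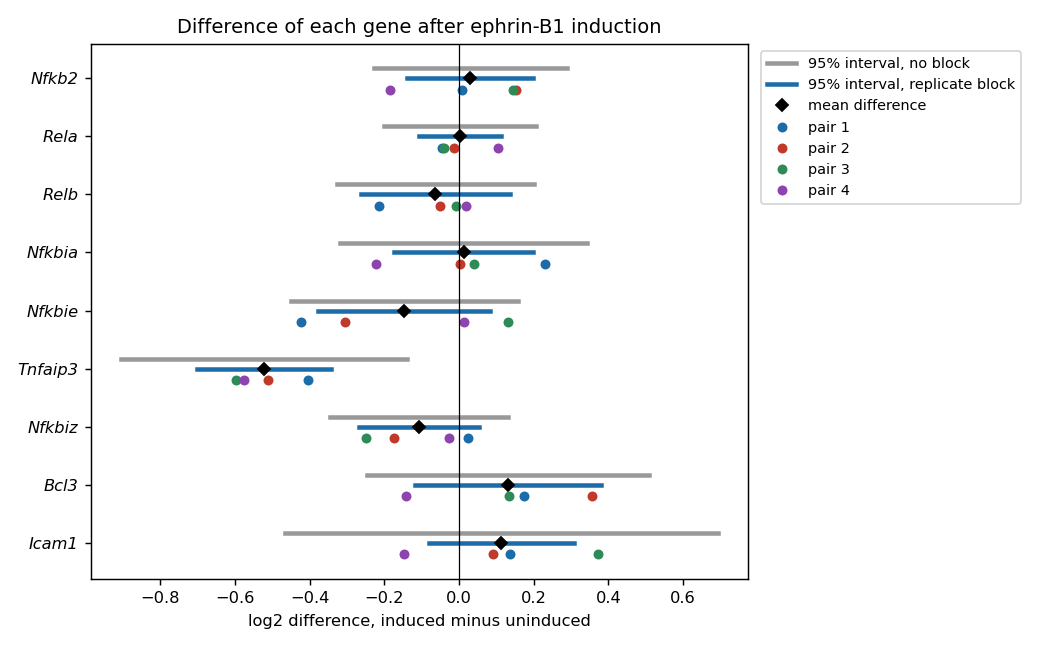
Log2 difference, induced minus uninduced (horizontal axis), of each gene, with the mean (diamond), the 95% limma intervals without a block and with the replicate block (bars) and the 4 pair differences (points). Tnfaip3 lies at -0.52 with both intervals below 0, and the intervals of the other 8 genes hold 0.

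The genes whose profile over the 8 arrays lay closest to that of Tnfaip3 were found by the root mean square difference between log2 values centred on the mean of each gene. Tnfaip3 itself departed from its mean by a root mean square of 0.35. The 5 closest of the 9396 genes tested were Phlda1 at 0.087, Pim3 at 0.11, F3 at 0.12, Fosb at 0.13 and Dock1 at 0.14. Phlda1 encodes a pleckstrin homology-like domain protein, Pim3 a serine/threonine kinase, F3 the tissue factor of blood clotting, Fosb an AP-1 subunit and Dock1 an activator of the GTPase Rac. Their mean log2 differences were -0.53, -0.37, -0.33, -0.53 and -0.38, each lower in 4 of 4 pairs. These values describe the choice, since likeness to Tnfaip3 takes in its shift with induction and its shift between slides, and no test is drawn from them. Fosb and Dock1 were near background, with raw signals of 95.8 to 159.7 and 80.8 to 122.6. Another Dock1 probe had a log2 mean of 5.56 in uninduced and 5.42 in induced cells and was higher in pair 4.

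**Figure D3:**
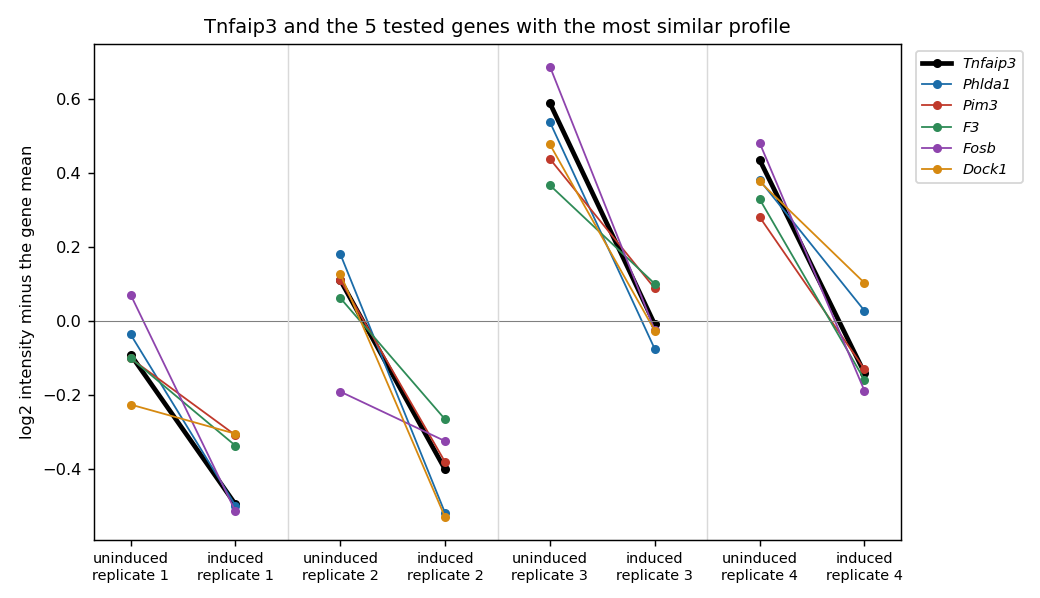
Log2 intensity minus the mean of each gene over the 8 arrays (vertical axis) for Tnfaip3 (thick line) and the 5 tested genes closest to it, with lines joining the 2 arrays of each replicate number. The 6 genes are lower in the induced array of every pair and higher in replicates 3 and 4 than in replicate 1.

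The same measure for Nfkbia gave Pafah1b1 at 0.057, Nprl2 at 0.058, Mon1a at 0.059, 2610524H06Rik at 0.059 and Ecm1 at 0.060, against 0.19 for the departure of Nfkbia from its own mean. Their log2 differences ran from -0.0093 to 0.033.

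Other genes of the pathway were taken from 5 lists and, apart from targets, none of them was called. Of all genes tested, 0.0319% were called without a block, 0.532% with the replicate block and 0.128% with the slide block. At these shares a count of 0 is no result about lists of this size. Of 17 tested subunits and inhibitors outside the 9 genes, 10 had a lower and 7 a higher mean, with a median of -0.047, and limma called 0 of them in each of the 3 fits. Ppp1r13l, which encodes a Rela-binding inhibitor, had the smallest unadjusted p (log2 difference -0.30, limma adjusted p = 0.383 with the replicate block, lower in 4 of 4 pairs). Nfkbid and Nfkbib, both of the IkB family, had differences of 0.25 (0.59) and 0.20 (0.757), with the adjusted p of the same fit in parentheses. Both were near background, above it on 2 and 3 of 4 uninduced arrays and on 4 of 4 induced arrays. Rel, the gene of c-Rel, was above background on 2 arrays of each group.

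The route that leads to NF-kB gave no calls, where at most 0.532% of all genes tested were called in any of the 3 fits. Of 27 kinases and adaptors tested, 15 had a lower and 12 a higher mean (median -0.018), and those with the smallest unadjusted p were Bcl10 at -0.18, Traf6 at -0.22 and Ikbke at -0.21, encoding adaptor, ubiquitin ligase and kinase. Of 13 receptors tested, 7 had a lower and 6 a higher mean (median -0.026), with Il18r1 at -0.14, Tlr4 at -0.21 and Ltbr at -0.13. With the replicate block their limma adjusted p ran from 0.24 for Bcl10 to 0.815 for Il18r1. Of 13 ligands on the array only 3 were tested, Eda at -0.14, Tnfsf11 at -0.17 and Il33 at 0.038. Eda, like the receptor gene Il18r1, was near background, above it on at most 3 uninduced and 2 induced arrays. Of the 13 ligands, 8 were not above background on any array, among them Tnf, Lta, Ltb and Il1a. Il1b, named after its values were seen, exceeded background on 0 of 4 uninduced and 3 of 4 induced arrays. Its raw signals were 59.8, 65.1, 67.6 and 64.7 in uninduced and 81.3, 90.4, 120.9 and 85.4 in induced cells. Every induced array was brighter than every uninduced one. The mean of the 4 induced arrays lay 1.10-fold above the lowest level that counted as above background. Induced replicate 1, itself not above background, is part of that mean, so the figure is not a lower bound. With 3 arrays above background Il1b was not tested.

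Of 24 NF-kB targets tested, 12 had a lower and 12 a higher mean (median 0.0024). Limma called 0 of 24 lower without a block, where 0.0213% of all genes were called lower. It called 1 of 24 lower with the slide block (0.106% of all genes) and 2 of 24 with the replicate block (0.49%). It called 1 of 24 higher in each of these 3 fits, where the shares of all genes were 0.0106%, 0.0213% and 0.0426%. That gene was Ccl4, a chemokine gene, with raw signals of 53.3 to 84.4 in uninduced and 251.3 to 486 in induced cells. By its brighter probe it was above background on 0 of 4 uninduced and 4 of 4 induced arrays. The level was at least 8.68-fold higher by this probe (limma adjusted p = 0.000271). Another Ccl4 probe had the same detection counts and was at least 1.91-fold higher. Ccl4 passed the filter through the induced arrays alone, so it could be tested only because it was high there. Its call is given as a description, and nothing about the list is drawn from it. Without a block Ccl4 was the only gene called higher, so the share of 0.0106% is Ccl4 itself. Ptgs2, the inducible cyclooxygenase, had a log2 difference of -0.78 (limma adjusted p = 0.00036 with the replicate block, 0.0143 with the slide block and 0.189 without a block, lower in 4 of 4 pairs). Lif, an interleukin-6 family cytokine, had a difference of -0.47 (limma adjusted p = 0.0247 with the replicate block and 0.158 with the slide block, lower in 4 of 4 pairs). Of the 24 targets, 2 had groups that did not overlap and were lower, Ptgs2 and Lif, and 2 were higher, Ccl4 and Tapbp. Over all genes tested the shares were 0.713% and 0.479%. Without a call, Tapbp, Irf1 and Gadd45b were higher in 4 of 4 pairs, at 0.22, 0.32 and 0.33. Ccl2, Ccl7, Plau and Tnc were lower in 4 of 4 pairs, at -0.21, -0.16, -0.20 and -0.22. These uncalled genes were named after their values were seen. Ptgs2 and Lif each had further probes, none of which was above background on any array.

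**Figure D4:**
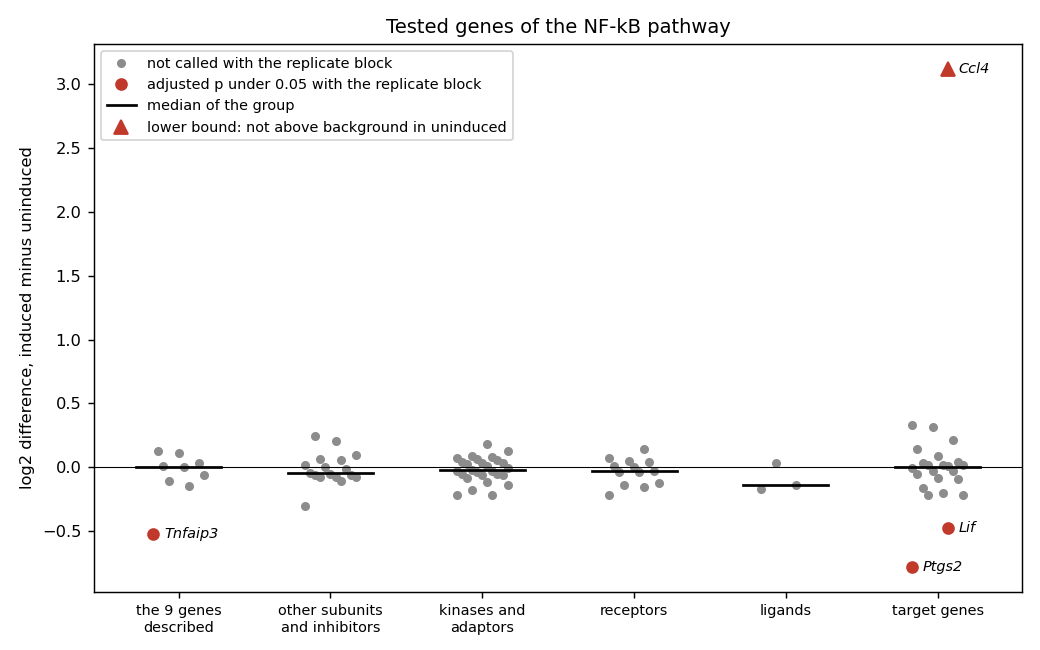
Log2 difference, induced minus uninduced (vertical axis), of each tested gene in the 9 NF-kB genes and 5 pathway lists, with the median of each group as a bar. Named points passed limma with the replicate block, which were Tnfaip3, Ptgs2 and Lif below 0 and Ccl4 above it. Ccl4 is drawn as a triangle at the lower bound of its brighter probe, 8.68-fold. It could be tested only because it was high on the induced arrays, so its pass is a description.

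The cell type was checked with marker lists. Of 10 palatal mesenchyme markers 9 were tested, 5 with a lower and 4 with a higher mean. Their summed level was 15.18 to 15.36 in uninduced and 15.17 to 15.27 in induced cells. Such sums weigh the brightest probes most, here Vim with a mean of 14.49 in uninduced cells, against 9.80 for Osr2 and 10.80 for Shox2. Osr2 and Shox2, at 0.25 and 0.14, were higher and Vim, at -0.096, was lower in 4 of 4 pairs. With the replicate block their limma adjusted p was 0.128, 0.554 and 0.649, and they were named after their values were seen. Of 11 macrophage markers on the array 10 were tested, 5 with a lower and 5 with a higher mean. The brightest were Laptm5, Cd14, Fcer1g and C1qb, while Ptprc was not above background on any array. The summed level of the 10 markers was 9.77 to 10.46 in uninduced and 9.58 to 10.54 in induced cells. Tyrobp and Cd52, named after their values were seen, were higher in 4 of 4 pairs, at 0.23 and 0.21. With the replicate block their limma adjusted p was 0.66 and 0.675. Of 7 endothelial markers 2 were tested, with summed levels of 6.58 to 6.94 and 6.76 to 7.17, higher on the induced array of 4 of 4 pairs. Of these 2, 1 had a lower and 1 a higher mean. Emcn had a log2 difference of -0.063 and was higher in 3 of 4 pairs. Kdr, named after its values were seen, was higher in 4 of 4 pairs, with a log2 difference of 0.37 (replicate block, limma adjusted p = 0.375). Over all genes tested, 7.56% were higher and 8.35% lower in 4 of 4 pairs. Pecam1, Cdh5, Tek and Tie1 were not above background on any array. Of 10 epithelial markers 3 were tested, with 8.70 to 9.22 and 8.69 to 9.43, and Epcam was not above background on any array. None of these lists had a called member in any of the 3 fits, where at most 0.532% of all genes tested were called. The part of the lists in the Tnfaip3 and Ccl4 values was not tested. The share of probes above background was 32.8% to 37.2% per array, and the number of arrays limits the precision.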

How the data were processed

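Total RNA was labelled as biotinylated cRNA and hybridised to 8 Illumina bead arrays with 1 channel. The deposited values give, for each probe, the mean intensity of its beads, linear and not normalized between arrays, with a detection p-value against negative control beads, per the file headers. They were exported with GenomeStudio 1.6.0, per the submitters' processing notes. The authors' matrix, used as an alternative, holds background-subtracted intensity with the same median, 4.4, on each of the arrays. Signals were background corrected with normexp (negative controls inferred from detection p-values, offset 16) and quantile normalized (neqc, limma 3.58.1, R 4.3.3). Lines of 11 repeated probe identifiers were averaged. Probes above background (detection p under 0.05) on 4 or more of the 8 arrays were kept (16514), the variance trend was fitted on them, and p-values were adjusted over the brightest probe of 9396 genes, two-sided. The fit has no block, and the replicate number or the slide as a block was an alternative. The numbers were taken to pair the arrays. Deviations from the group means correlated across genes at 0.626, 0.592, 0.717 and 0.621 for equal numbers, above the limit of 0.1 in every pair. For unequal numbers the values were -0.539 to 0.301, so some also passed the limit, but all were below those of equal numbers. Replicates 1 and 2 each had a slide to themselves, so pair and slide cannot be told apart there. The fit was tested on simulated data. Genes and lists were chosen with earlier results of these data known. Named beside the 10 genes were called list genes or else the 3 with the smallest p, the 5 closest profiles, and the brightest macrophage markers. Leaving out arrays kept the normalization and the probes of all 8. Of 46632 probes 29976 carried 1 gene name, 10 several and 16646 none. A planned search of protein sequences was not run.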

Additional observations from a re-analysis of the deposited data

Results flagged for a closer look

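Over 10 member probes in each of 2 groups, 20 groups of 4 arrays were checked for an array far from the others, and chance alone marks about 1 in 20. Of these, 1 array stood out. Bcl3 had a normalized log2 intensity of 6.11 on induced replicate 2, against 5.47 to 5.53 on the other 3 induced arrays. Uninduced replicate 2 was also the highest of its group, at 5.76. Without induced replicate 2 the log2 difference of Bcl3 was -0.021 in place of 0.13.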

How the results depend on the processing

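Over 29 alternatives the log2 difference of Tnfaip3 stayed between -0.64 and -0.37 and never changed sign, with adjusted p from 0.00524 to 1. It was called in 3 of them, each with the replicate block. The lowest limma adjusted p came from 1 of these 3, the replicate block with median scaling, a setting chosen after seeing the data. Genes called numbered 3. With the replicate block the count was 50 (4 higher, 46 lower) and with the slide block 12 (2 higher, 10 lower). It was 1 with median scaling, with no normalization between arrays, without the variance trend and on slides 1 and 2 alone, and 0 with probes detected on all 8 arrays and on slide 3 alone, where 96 and 204 genes had an unadjusted p under 0.05 in limma. Leaving out 1 array gave 1 to 2, and leaving out pair 1, 2, 3 or 4 with the replicate block 34, 22, 36 and 27. Chosen after seeing the data were the combinations of the replicate block with median scaling, which gave 42, and without the variance trend, which gave 11. Of the 9 genes, 1 was called with the replicate block, 1 with the replicate block and median scaling, and 0 to 1 without 1 pair. The block changed no other call among the 9. The median over the 9 genes was -0.080 to 0.010 without 1 array. On slides 1 and 2 alone Rela was at -0.029, and on slide 3 alone Nfkbia was at -0.092, Nfkbie at 0.072, Nfkb2 at -0.019, Relb at 0.0045 and Bcl3 at -0.0030, each with the opposite sign. Leaving out 1 array also turned the sign of Nfkbia (-0.080 to 0.11), Nfkb2 (-0.022 to 0.091), Rela (-0.054 to 0.062), Bcl3 (-0.021 to 0.21) and Icam1 (-0.13 to 0.27). With the replicate block, leaving out a pair turned Nfkbia (-0.060 without replicate 1), Nfkb2 (-0.010 without replicate 2, -0.0081 without replicate 3) and Rela (-0.033 without replicate 4). None of these values was called, and the cause of the changes was not tested. With a detection p under 0.01, Bcl3 was not tested. Median scaling moved the median of all genes from -0.0015 to 0.011.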
